A study of Mus musculus with 6 samples.

Results

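The retinoic acid (RA) receptor genes *Rara*, *Rarb* and *Rarg*, and the retinoid X receptor genes *Rxra*, *Rxrb* and *Rxrg*, were taken by their gene names from a table of 26437 genes. All 6 were listed, each in 1 line, and all 6 passed the filter of a mean above 0.5 over the libraries that left 22921 genes for testing. RNA-seq had been performed on eye tissue of E10 mouse embryos, in 2 groups, wild-type (WT) embryos and embryos homozygous for an *Rdh10* null allele (*Rdh10*-/-, here *Rdh10* KO), all from outbred mice of mixed Black Swiss and C57BL/6 background. *Rdh10* encodes the retinol dehydrogenase that makes retinaldehyde, the precursor of RA, and the KO embryos came from matings of heterozygous parents. Each group consisted of 3 libraries, and each library was made from a pool of 3 embryos, so a value stands for a pool and not for an embryo. The dissected piece was the frontal head with both optic vesicles, the frontonasal region and some forebrain, and the values are therefore those of a mixed tissue and not of the eye alone.

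RARs are transcription factors that bind RA and act on DNA as heterodimers with RXRs. The heterodimer sits on RA response elements (RAREs), which are direct repeats of a short hexamer motif separated by a few bases. Without ligand the RAR holds corepressors, and RA binding exchanges these for coactivators. RXRs also pair with other nuclear receptors, among them the thyroid hormone, vitamin D and peroxisome proliferator-activated receptors. *Rarb* is a textbook RA-induced gene, whose promoter holds a RARE with a spacer of 5 bases (DR5).

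The RefSeq promoter windows (GRCm38.p6, 250 bases before to 50 bases after a start) of the 6 genes were searched for that arrangement. In all there were 13 windows, and each gene had at least 1. The hexamers searched were the canonical AGGTCA together with the variant AGTTCA, and the forms of both that begin with G, which are GGGTCA for the canonical hexamer and GGTTCA for the variant. Any of the 4, followed by itself or another in the same direction after 1, 2 or 5 bases, counted as a match, on both strands. A match was found in 1 window, that of *Rarb*, and it was a DR5. The 250 bases upstream of this start, chr14:16575477-16575726 on the minus strand, are shown because they hold the match, with the repeated hexamers in capitals.
*Rarb* upstream: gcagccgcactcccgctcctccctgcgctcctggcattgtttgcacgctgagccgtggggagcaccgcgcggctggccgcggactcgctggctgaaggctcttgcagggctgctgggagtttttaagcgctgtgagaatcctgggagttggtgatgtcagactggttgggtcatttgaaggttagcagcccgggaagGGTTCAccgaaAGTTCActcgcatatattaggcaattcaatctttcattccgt
*Rarb* DR5: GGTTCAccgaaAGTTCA
The DR5 lies at chr14:16575513-16575529, which is position -53 to -37 from the RefSeq start. Of all 32851 mouse windows of this length, 0.0974% held a DR5 of these letters, 0.222% a repeat with 1 base between and 0.268% a repeat with 2 bases between. In GENCODE release 21, 5 of the 7 *Rarb* transcripts start within 1 kb of the DR5 and the other 2 start at least 243 kb upstream of it. Of the 5, the protein-coding *Rarb-201* and *Rarb-207* start 14 and 298 bases upstream of the DR5, which thus lies downstream of their starts. The rest of the 5 are not protein-coding and start downstream of the DR5. The values below are per gene and do not separate these transcripts. A match of letters does not show that a receptor was bound there, and the absence of these letters from the other windows says nothing on their response to RA.

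The libraries held between 16392777 and 27101025 reads assigned to genes. *Rdh10*, the targeted gene, measured 399, 342 and 381 normalized counts in the WT libraries and 183, 142 and 181 in the KO libraries, so that the groups were far apart and the KO level was 45.1% of WT. Which part of the gene the null allele lacks is not given in the sources used here. Marker genes for craniofacial mesenchyme (none of 6 past the threshold, summed level 9688 to 9940 in WT and 9764 to 10230 in KO) and for optic vesicle (summed level 3120 to 3262 in WT and 1929 to 3411 in KO) were both present. Optic vesicle and embryonic blood markers were lowest in KO library 1, in which blood markers summed to 49471 against 97767 to 151683 in the other 5 libraries. Replicates differed by more than counting error in every pair (chi-square per degree of freedom at least 2.83 between WT libraries and 13.5 to 19.0 between KO libraries), so no library was counted as a repeat of another.

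The first comparison asked which of the receptor genes changed when RA synthesis was lost. *Rarb* fell to 49.7% of its WT level, and no other receptor gene passed the test in either direction. The background for such a count is that, of the 22921 genes tested, 9.12% were lower and 10.3% higher at an adjusted p under 0.05 (limma), against 1 lower and 0 higher among the 6 receptors. The median log2 fold change was -0.02 for the 6 receptors and 0.0036 for all genes tested.

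*Rarb* (ENSMUSG00000017491.8, GRCm38 chr14:16430839-16819156, minus strand) measured 640, 601 and 618 normalized counts in the WT libraries, where 1 normalized count is about 1 read in a library of average depth. In the KO libraries it measured 279, 346 and 300. The lowest WT library was thus far above the highest KO library. The means were 620 ± 19.8 (SD, n = 3) and 308 ± 34.3 (SD, n = 3), from 255 to 657 reads per library. The log2 fold change, *Rdh10* KO against WT, was -1.01 with a standard error of 0.11 and a 95% confidence interval of -1.24 to -0.79 (limma, adjusted p = 3.29e-05). *Rarb* also passed the second rule, which requires a log2 fold change below -0.85 as well and which 0.886% of the genes tested passed. Among the 11218 genes with a mean of at least 100 normalized counts, 37 had a lower log2 fold change than *Rarb*. Without KO library 1 the log2 fold change of *Rarb* was -0.94 (limma, adjusted p = 0.00119).

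In this annotation the 3' part of *Rarb* meets a more abundant gene on the opposite strand. *Top2b*, which encodes a DNA topoisomerase, shares 1793 exon bases with *Rarb*, or 34.1% of the exon length of *Rarb*, and its normalized counts were 13.2 times those of *Rarb* in WT. A further 227 bases (4.31%) are shared with the antisense transcript *Gm48162*, for which no value was used. The libraries were directional, but the sources used here do not say whether strand was used in counting, so reads of *Rarb* and *Top2b* in the shared part may have been exchanged. *Top2b* measured 8177 ± 241 (SD, n = 3) in WT and 6727 ± 686 (SD, n = 3) in KO, a log2 fold change of -0.29 with a standard error of 0.08 (limma, adjusted p = 0.0153). The log2 ratio of *Rarb* to *Top2b* within a library was lower by 0.73 in KO, and the groups did not overlap (exact permutation test, two-sided, p = 0.1, which is the minimum for 3 libraries a group).

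*Rara* (ENSMUSG00000037992.16, chr11:98927818-98974942, plus strand), the RAR gene with the broadest expression, measured 604, 502 and 487 normalized counts in WT and 609, 570 and 717 in KO. WT library 1 lay between the KO libraries, so the groups overlapped. The means were 531 ± 63.4 and 632 ± 76.0 (SD, n = 3 each), with a log2 fold change of 0.25 (standard error 0.11, 95% confidence interval 0.0087 to 0.49) that did not pass after adjustment over all genes (limma, adjusted p = 0.146). *Rarg* (ENSMUSG00000001288.14, chr15:102234938-102257517, minus strand), the third RAR gene, measured 1090, 1029 and 1033 in WT and 1010, 1083 and 1138 in KO. The groups overlapped, and the log2 fold change of *Rarg* was 0.03 with a 95% confidence interval of -0.14 to 0.20 (limma, adjusted p = 0.824).

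*Rxra* (ENSMUSG00000015846.14, chr2:27676440-27762957, plus strand), a main RAR partner in the embryo, measured 1871, 1706 and 1621 normalized counts in WT and 1877, 1651 and 1727 in KO. The KO values lay within and just above the WT range, and the log2 fold change was 0.02 with a 95% confidence interval of -0.16 to 0.19 (limma, adjusted p = 0.926). *Rxrb* (ENSMUSG00000039656.16, chr17:34031812-34038399, plus strand) measured 1359, 1408 and 1389 in WT and 1325, 1154 and 1318 in KO. Every KO library was below every WT library, the KO mean being 91.4% of the WT mean, but the log2 fold change of -0.13 (95% confidence interval -0.30 to 0.04) did not pass (limma, adjusted p = 0.287). *Rxrb* and *Rarb* were the 2 receptors whose groups did not overlap, a property of 34.6% of all genes tested. *Rxrg* (ENSMUSG00000015843.10, chr1:167598384-167639623, plus strand) was low, with 45.0, 33.4 and 48.0 normalized counts in WT and 32.9, 53.3 and 36.5 in KO, from 30 to 51 reads per library. The groups overlapped fully. Counting error alone is up to 18.3% at this depth, and the 95% confidence interval of the *Rxrg* log2 fold change of -0.06 ran from -0.68 to 0.56 (limma, adjusted p = 0.931), so a change of moderate size was not detectable.

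**Figure D1:**
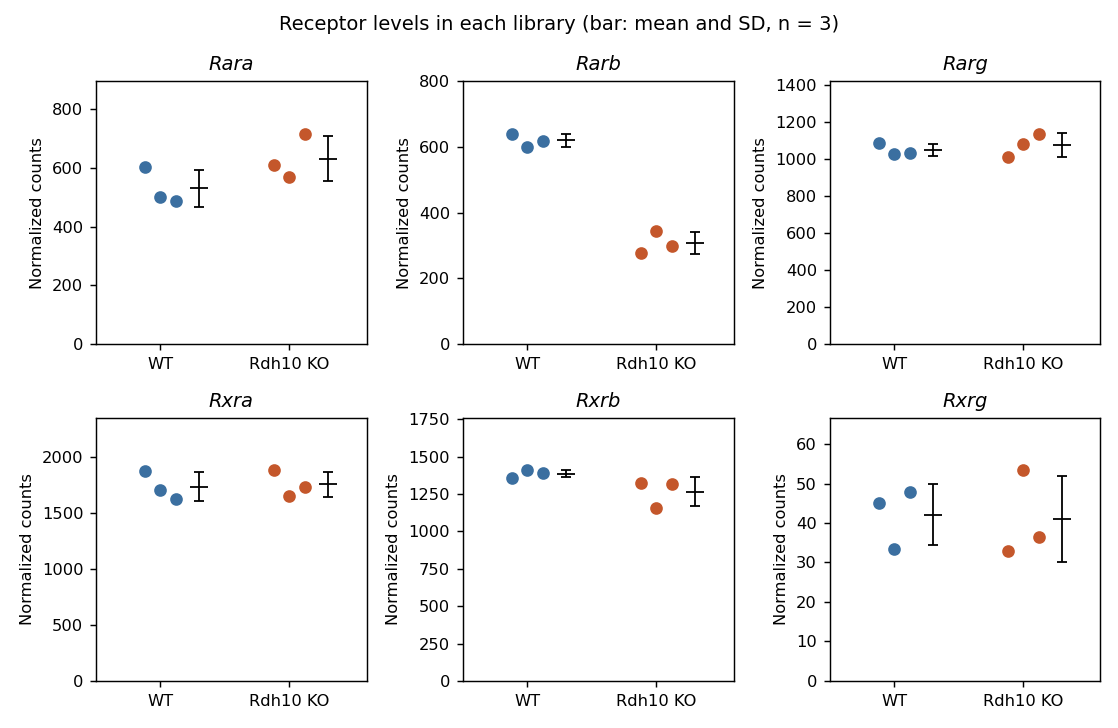
Normalized counts (vertical axis, each panel from 0) of the 6 receptor genes in the 3 WT (blue) and 3 *Rdh10* KO (orange) libraries, points in the order of replicates 1 to 3, with the mean and SD of each group beside them. The *Rarb* groups are far apart (601 to 640 against 279 to 346), the *Rxrb* groups are apart by a small gap, and the other 4 overlap.

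**Figure D2:**
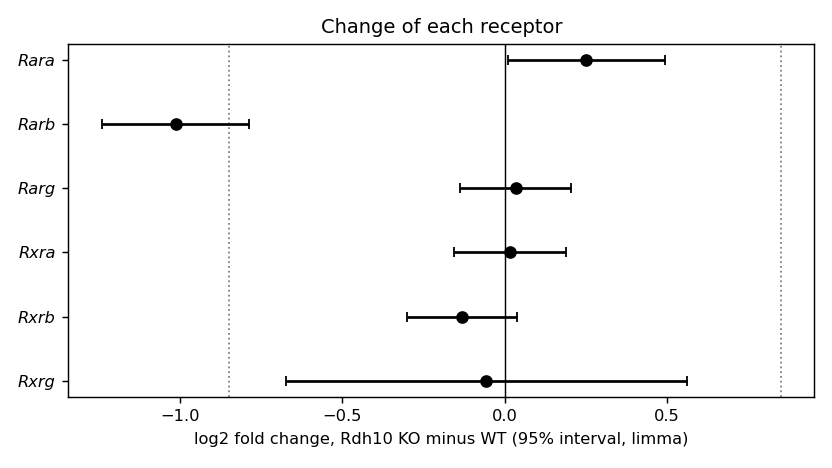
Log2 fold change of each receptor gene, *Rdh10* KO minus WT, with its 95% confidence interval from limma; dotted lines mark 0.85 in either direction. *Rarb* at -1.01 is the 1 receptor below the lower dotted line, and the interval of *Rxrg* is the widest.

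In bulk tissue, fewer cells that express a gene and less RNA per cell cannot be told apart, and this holds for every level given here. The summed level of the endothelial markers was 2950 to 3443 normalized counts in WT and 4095 to 4318 in KO without overlap. For the marker counts here, the background is that 10.3% of all genes tested rose and 9.12% fell. Among genes with a mean of at least 100, 18.2% rose and 17.1% fell. Of the 6 endothelial markers, 3 (*Pecam1*, *Cdh5* and *Kdr*) rose. The other 3 did not pass and overlapped between the groups, with log2 fold changes of 0.12 (*Tek*), 0.08 (*Emcn*) and -0.34 (*Cldn5*). Of the optic vesicle markers, *Lhx2* fell while *Rax* and *Six3* rose, and the other 3 did not pass. These 3 calls, and that of *Cdh1* below, were lost without any of 5 libraries, that of *Cdh5* whichever library was left out, that of *Otx2* without WT library 1 or 2, and that of *Prl3d1* without KO library 1. *Otx2* was the 1 forebrain marker of 6 and *Cdh1* the 1 surface ectoderm marker of 6 that rose, and the summed levels of both lists overlapped between the groups (5745 to 5955 in WT and 5097 to 7618 in KO for forebrain, 5175 to 5690 and 5191 to 6177 for surface ectoderm). None of 6 blood and none of 6 heart markers passed, and heart markers summed to at most 52.2 in any library. Of the placenta markers 4 of 6 were in the table and 1 (*Prl3d1*, at 0 in every WT library) rose, with a summed level of at most 36.8. The part of these differences in the receptor values was not tested.

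Levels of different genes were compared after division by exon length. In WT the order per kilobase was *Rxrb* (349 ± 6.23 normalized counts per kilobase), *Rxra* (317 ± 23.3), *Rarg* (247 ± 7.90), *Rara* (122 ± 14.5), *Rarb* (118 ± 3.76) and *Rxrg* (18.3 ± 3.35; SD, n = 3 each). In this order the ranges of *Rxrb* and *Rxra* overlapped, as did those of *Rara* and *Rarb*, while the other neighbours were apart. *Rxrb* was above 86.1% of 22806 genes in level per kilobase in WT, *Rarb* above 69.3% and *Rxrg* above 45.6%. In KO the values were 321 ± 21.1 for *Rxra*, 319 ± 24.3 for *Rxrb*, 253 ± 15.1 for *Rarg*, 145 ± 17.4 for *Rara*, 58.5 ± 6.51 for *Rarb* and 17.8 ± 4.75 for *Rxrg*. Here only the ranges of *Rxra* and *Rxrb* overlapped, and *Rarb*, which by this length was level with *Rara* in WT, was below it in every KO library. The order in WT depends on the length used. With the longest transcript as length, mean WT shares of the summed level were 12.4% for *Rarb*, 9.71% for *Rara*, 22.1% for *Rarg* and 21.9% for *Rxra*. Without division by length they were 11.6% for *Rarb*, 9.88% for *Rara*, 32.3% for *Rxra* and 25.9% for *Rxrb*. The KO mean of *Rarb* was below that of *Rara* in both.

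The share of each receptor in the summed level per kilobase of all 6 does not depend on how a library is scaled. *Rarb* made up 9.97%, 9.91% and 10.3% of the sum in the WT libraries and 4.72%, 6.16% and 4.95% in the KO libraries. Its mean share went from 10.1% ± 0.213 to 5.27% ± 0.773 (SD, n = 3 each), and the groups did not overlap (exact permutation test, two-sided, p = 0.1, the minimum for this design). The *Rara* share was 11.3%, 9.98% and 9.80% in WT and 12.5%, 12.2% and 14.3% in KO. It went from 10.4% ± 0.840 to 13.0% ± 1.11, also without overlap (exact permutation test, p = 0.1). A share of a whole has to rise somewhere when that of 1 member falls, so the *Rara* share is not independent of the *Rarb* share. The shares of the other 4 overlapped between the groups. The mean share of *Rarg* was 21.1% in WT and 22.7% in KO, that of *Rxra* 27.1% and 28.8%, that of *Rxrb* 29.8% and 28.6%, and that of *Rxrg* 1.57% and 1.61% (exact permutation tests, p = 0.2 to 0.8).

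**Figure D3:**
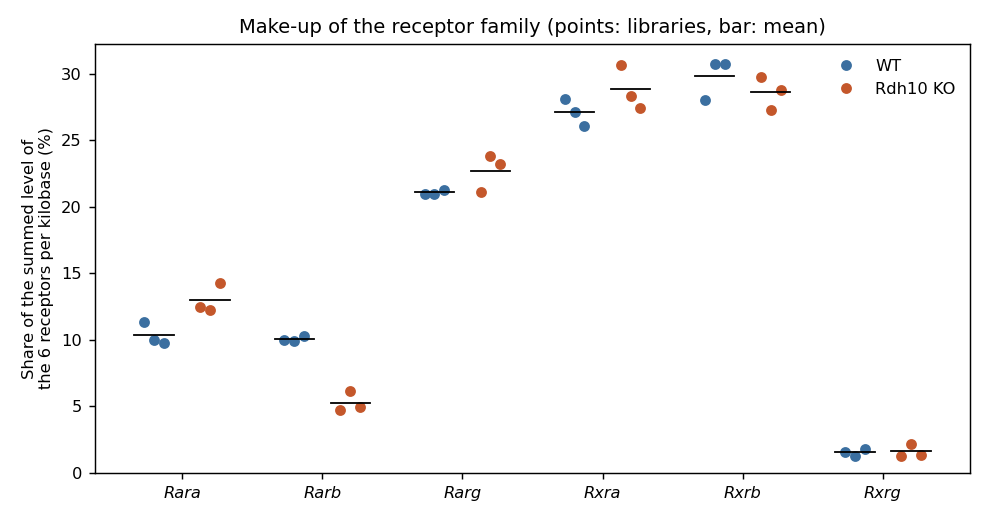
Share of each receptor gene in the summed level per kilobase of the 6 (percent, vertical axis) in each WT (blue) and *Rdh10* KO (orange) library, with bars at the group means. The *Rarb* points go from about 10.1% to 5.27% and the *Rara* points from 10.4% to 13.0% without overlap, and the other 4 receptors overlap.

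Among the RARs alone, *Rarg* held the largest share in both groups, 50.8% ± 1.04 in WT and 55.4% ± 0.898 in KO. *Rara* went from 25.0% ± 1.64 to 31.7% ± 2.42 of the RAR sum and *Rarb* from 24.2% ± 0.649 to 12.9% ± 1.53 (SD, n = 3 each). All 3 shares were without overlap between the groups (exact permutation test, p = 0.1 each). They are parts of a whole, so the shares of *Rara* and *Rarg* are not independent of that of *Rarb*. The level of *Rarg* itself overlapped between the groups, with a log2 fold change of 0.03. Among the RXRs alone, *Rxra* held 46.3% in WT and 48.8% in KO and *Rxrb* 51.0% and 48.5%, with overlapping groups (exact permutation test, p = 0.2 each).

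The balance between RARs and RXRs overlapped between the groups. RARs summed to 486 ± 25.7 normalized counts per kilobase in WT and 456 ± 29.8 in KO, and RXRs to 684 ± 18.6 and 657 ± 38.2 (SD, n = 3 each). The level of RXR per RAR was 1.41 in WT and 1.45 in KO, and the log2 ratio of RAR to RXR differed by -0.03 (exact two-sided permutation test, p = 0.9). The sum over all 6 was 1170 ± 43.5 in WT and 1113 ± 43.3 in KO (exact permutation test, p = 0.3). Without *Rarb*, the RAR sum was 368 ± 22.3 in WT and 397 ± 29.5 in KO (exact permutation test, p = 0.3).

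Whether 1 receptor moved differently from another was compared within libraries, for all 15 pairs. The log2 change of *Rarb* was below that of *Rara* by 1.26, with no overlap between the groups in the log2 ratio of the pair. Against the other 4 it differed by -1.05 for *Rarg*, -1.03 for *Rxra*, -0.88 for *Rxrb* and -0.96 for *Rxrg*, again without overlap in any of them. *Rara* moved up relative to *Rxra* by 0.23 and to *Rxrb* by 0.38, both without overlap. Without KO library 3 the former difference was 0.13. Each of these 7 pairs was at the minimum of the exact permutation test (two-sided, p = 0.1, adjusted p = 0.214 over the 15 pairs). The groups overlapped in the other 8 pairs.

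The genes whose log2 values over the 6 libraries ran closest to those of each receptor were found among the genes with a mean of at least 100 (11217 compared for each receptor other than *Rxrg*, and 11218 for *Rxrg*). The measure was the root mean square (RMS) difference after each gene was centred on its own mean. For *Rarb* these were *2010111I01Rik* (RMS 0.0922, log2 fold change -0.90), *Kif27* (0.103, -1.02) and *Alx4* (0.109, -0.95), the last of which encodes a paired-type homeobox factor of craniofacial mesenchyme. *Alx4* measured 2304, 2294 and 2404 normalized counts in WT and 1176, 1190 and 1268 in KO. The closest genes were *Zfp956* and *Myo1e* for *Rara*, *Ttc5*, *Parva* and *Maz* for *Rarg*, *Rrp1b*, *Utp20* and *Ankrd13a* for *Rxra*, *Zpr1*, *Nfkbia* and *Zfp622* for *Rxrb*, and *Dpp7*, *Pak3* and *Mtrf1* for *Rxrg*. The likeness is over 6 libraries and includes the difference between the groups.

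The genes that make, break down and carry RA were examined beside the receptors. Of 18 such genes tested, 9 fell, 1 rose and 8 did not pass, with a median log2 fold change of -0.50. Over all genes tested 9.12% fell and 10.3% rose. The median exon length of this list is 2947 bases. Among genes with a mean of at least 100, 29.4% of those with up to 3001 exon bases fell. After the correction for GC content and exon length described below, 9 genes of the list fell and 1 rose. Of all 22800 genes in that fit, 2942 fell and 1956 rose. *Aldh1a1*, a retinaldehyde dehydrogenase, had a log2 fold change of -1.44 (limma, adjusted p = 1.11e-05). *Cyp26b1*, an RA-degrading enzyme, was at -1.18 (limma, adjusted p = 0.0236) and *Rdh10* itself at -1.16 (limma, adjusted p = 7.35e-05). *Dhrs3*, a retinaldehyde reductase, was at -1.04 (limma, adjusted p = 0.0186). The calls of *Cyp26b1* (kept without KO library 1) and *Dhrs3* (kept without KO library 3) were each lost on leaving out any of the other 5 libraries, with adjusted p up to 0.274 and 0.185 over the alternatives tried. *Rbp4*, the plasma retinol carrier, was the gene that rose, by 0.78 (limma, adjusted p = 0.0400), and it kept its call only without KO library 2 when single libraries were left out.

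RA response genes were represented by a list of 18, of which 16 could be tested. Of these, 5 fell, 1 rose and 10 did not pass, with a median log2 fold change of -0.29, where 9.12% of all genes tested fell and 10.3% rose. The 5 that fell, among them *Cyp26b1*, *Dhrs3*, *Crabp2* and *Stra6*, are also in the list of RA synthesis, degradation and binding, and the 1 that rose, *Nrip1*, is also a corepressor, so the lists are not separate evidence. Among the 31 genes with a DR5 in a promoter window, 10 were tested. *Rarb* and *Gm14133* (log2 fold change -4.94) were lower and *Ppbp* (0.86) was higher, and the latter pair is named here after the values were seen. Lower genes, *Rarb* included, were thus 20% and higher genes 10% of these 10, against 9.12% and 10.3% of all genes tested. Of the 36 tested genes having a repeat with 1 base between, 19.4% were lower and 5.56% higher. Of the 16 with 2 bases between, 6.25% were lower and 25% higher. With so few genes such differences cannot be judged.

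The genes of proteins that receptors recruit were examined next. For both lists, the background is that 10.3% of all genes tested rose and 9.12% fell, and the share differs with exon length as given below. Of 8 corepressor genes, 5 rose, none fell and 3 did not pass, with a median log2 fold change of 0.31. *Ncor1*, a corepressor that binds RAR without ligand, was at 0.42 (limma, adjusted p = 0.00217). Of 11 coactivator genes, 5 rose, 1 fell and 5 did not pass, with a median of 0.23. *Ep300*, a histone acetyltransferase, rose by 0.66 (limma, adjusted p = 0.000185), *Ncoa1* by 0.61 (limma, adjusted p = 0.00863) and *Ncoa6* by 0.52 (limma, adjusted p = 0.00316). *Prmt1*, an arginine methyltransferase, fell by 0.37 (limma, adjusted p = 0.00100).

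These genes are long, and the log2 fold changes ran with exon length. Median exon length was 8408 bases for the corepressors and 8576 for the coactivators. Among genes with a mean of at least 100, those in the top quartile of exon length (7258 bases and over) had a median log2 fold change of 0.16, with 34.7% higher and 6.10% lower, and those in the bottom quartile (up to 3001 bases) had -0.16, with 8.42% higher and 29.4% lower. Once GC content and exon length were corrected for, 3 corepressors and 3 coactivators were higher, and 1 corepressor and 2 coactivators were lower. Over all 22800 genes in that fit, 1956 were higher and 2942 lower. *Ncor1* then lost its call, at a log2 fold change of 0.15 (limma, adjusted p = 0.0969). Under the same correction *Ep300* was at 0.36, *Ncoa6* at 0.31 and *Ncoa1* at 0.43, each with its call kept. No corepressor kept its call without WT library 1 or without WT library 2. *Ncoa1* and *Ncoa6* lost theirs when any 1 WT library or KO library 2 was left out, *Ncoa1* also without KO library 3, while *Ep300* and *Prmt1* kept theirs whichever library was left out. The part of length in these values was otherwise not tested. The exon lengths of the 6 receptors, 2297 to 5462 bases, lie below that top quartile, and the log2 fold change of *Rarb* was -1.08 after the same correction (limma, adjusted p = 1.11e-05).

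The remaining nuclear receptors were examined as 2 lists. For both, the background is that 10.3% of all genes tested rose and 9.12% fell. Of 11 tested receptors that pair with RXR, 4 rose and none fell, with a median log2 fold change of 0.51. *Nr4a1*, an immediate early orphan receptor, rose by 1.14 (limma, adjusted p = 0.000186), from 106 ± 11.5 to 233 ± 22.5 normalized counts (SD, n = 3 each). *Vdr*, the vitamin D receptor, rose by 0.84 (limma, adjusted p = 0.0215), *Ppard* by 0.61 (limma, adjusted p = 0.000844) and *Thra*, a thyroid hormone receptor, by 0.51 (limma, adjusted p = 0.00870). The calls of *Vdr* and *Thra* were lost when any 1 WT library or KO library 3 was left out, and that of *Vdr* also without KO library 2. Of 26 further nuclear receptors tested, 8 rose, 1 fell and 17 did not pass, with a median of 0.40. *Rora* rose by 1.54 (limma, adjusted p = 5.98e-05) and *Nr6a1*, also called germ cell nuclear factor, by 1.31 (limma, adjusted p = 7.24e-06), and both calls held whichever library was left out. The exon lengths of *Ppard*, *Rora* and *Nr6a1* (7514, 13071 and 10824 bases) lie in the top quartile given above. After the correction for GC content and length their log2 fold changes were 0.46, 1.33 and 1.08, each with its call kept. *Nr5a2* was at 1.33 (limma, adjusted p = 0.0346) from at most 44 reads in a library, and it lost its call whichever library was left out. *Nr2e1*, the tailless homologue of the forebrain and retina, was the receptor that fell, at -0.67 (limma, adjusted p = 0.0471), and its call was also lost whichever library was left out.

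**Figure D4:**
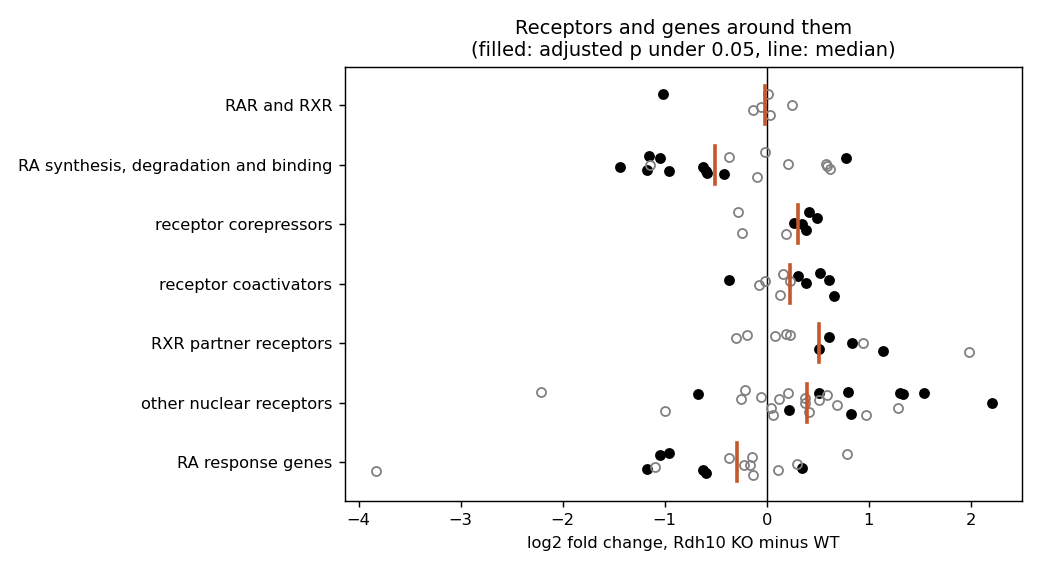
Log2 fold change, *Rdh10* KO minus WT, of the 6 receptor genes and of the genes tested in 6 related lists (rows), filled where the limma adjusted p was under 0.05, with an orange line at the median of each row. The receptor row is centred near 0 (median -0.02) with *Rarb* alone filled, the RA synthesis row is centred at -0.50, and the corepressor, coactivator and other receptor rows are centred above 0.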

How the data were processed

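Libraries were directional with poly(A) selection. The authors used TopHat and mm10 for alignment and named FPKM as normalization. The deposited signal is, however, whole reads per gene divided by 1 size factor per library (0.850 to 1.40) and not by length: whole reads were recovered for 100% of values (tolerance 0.02 reads plus rounding). It is called normalized counts here. Of 26438 lines, 1 named no gene and was left out. GENCODE release 21 (GRCm38) matched 99.5% of genes and gave positions and exon lengths (union of exons).

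For genes with a mean above 0.5, limma 3.58.1 (trend, R 4.3.3) was run on log2 of the value plus 0.1, with no covariate and with Benjamini-Hochberg adjustment over all 22921 genes. The fold changes are on that scale. Shares, ratios and pairs were compared by exact two-sided permutation tests (numpy 2.4.6). The test had been set for a normalized value of unknown unit and was kept. Alternatives included edgeR 4.0.16 and DESeq2 1.42.0 on the recovered reads, other pseudocounts, filters and scalings, a replicate block and leaving out each library. The limma, edgeR and DESeq2 fits were tested on simulated data. A correction for GC content and length, and an exon length without bases shared with other genes, were chosen after seeing the data.

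Named are the receptors, *Rdh10*, genes sharing exon bases with a receptor, the 3 genes nearest to each receptor and up to 4 called members of each list with the largest change. Results for some genes that this rule selects are not reported here. Other members named from the lists and markers were chosen after their values were seen. The members and lists were chosen with earlier results of these data known. Whether the 3 libraries of a group came from separate litters is not given in the sources used here, so p-values measure the spread between these pools. The p-values and confidence intervals from limma rest on the spread between libraries, with the variance of each gene drawn toward a trend over all genes.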

Additional observations from a re-analysis of the deposited data

How the results depend on the processing

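The lower level of *Rarb* passed the limma, edgeR or DESeq2 threshold under all 18 alternatives, with log2 fold changes of -1.10 to -0.94 and adjusted p from 2.95e-14 to 0.0278, the highest in limma without the intensity trend. No alternative called another receptor. With the replicate block the log2 fold change of *Rarb* was -1.01 (adjusted p = 0.00157). The deviations of same-numbered WT and KO libraries from their group means correlated at -0.026, -0.035 and -0.074, and those of differently numbered libraries at -0.036 to 0.066. A link between same-numbered libraries was thus not seen, but with 3 libraries per group these values cannot exclude shared litters or handling. The block gave 1387 lower and 1715 higher genes against 2091 and 2360 without it. *Rara* ranged from 0.16 to 0.35 and *Rxrb* from -0.17 to -0.07. The 3 receptors near 0 changed sign: *Rarg* to -0.0067 without KO replicate 3, *Rxra* to -0.030 without WT replicate 3, -0.034 without KO replicate 1 and -0.059 after GC content and length correction, and *Rxrg* to 0.00035, 0.046, 0.084 and 0.011 without WT replicate 1, WT replicate 3, KO replicate 1 and KO replicate 3. Without single libraries they reached 0.079 for *Rarg*, 0.073 for *Rxra* and -0.26 for *Rxrg* at the other end. The *Rarb* share changed by -4.79 percentage points, by -5.78 with the longest transcript as length, -5.47 without division by length, -7.08 with exon length without shared bases, and -5.23 to -4.51 without single libraries. Leaving out the shared bases shortened the length of *Rarb*, but reads in those bases were not removed from its value. With the longest transcript the *Rarg* shares no longer overlapped, and without shared bases neither the *Rarg* nor the *Rxra* shares did. The change in the log2 ratio of RAR to RXR ranged from -0.12 to 0.05. Over all genes, limma without trend called 197 lower and 448 higher, the GC content and length correction 2942 and 1956, and fits without a single library 427 to 1895 and 850 to 1983. Lower genes fell to 484, 427, 810, 1314 and 1188 without WT replicates 1, 2 and 3 and KO replicates 2 and 3, and higher genes to 888, 850, 1211 and 1436 without WT replicates 1, 2 and 3 and KO replicate 3. Depth limits *Rxrg*, with 30 to 51 reads per library.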
